A study of Mus musculus with 121 samples.

Results

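The 10 genes described here encode the cyclins, kinases and inhibitors that set the pace of the G1 phase. They are the D-type cyclins Ccnd1, Ccnd2 and Ccnd3, the E-type cyclins Ccne1 and Ccne2, the cyclin-dependent kinases Cdk2, Cdk4 and Cdk6, and the kinase inhibitors Cdkn1b and Cdkn2c. They were chosen by name and function, with earlier results of these data known. All 10 were listed in each of 3 count tables, which held 55351, 22493 and 25208 gene symbols. D-type cyclins are made in response to growth factor signals and bind CDK4 or CDK6, and the resulting kinase begins to phosphorylate the retinoblastoma protein. Once that protein releases the E2F transcription factors, cyclin E is made and activates CDK2, and the cell enters S phase. CDKN2C belongs to the INK4 inhibitors, which bind CDK4 and CDK6 alone, whereas CDKN1B acts mainly on cyclin E-CDK2 and also binds cyclin D complexes. In red cell precursors the slowing of this machinery accompanies terminal maturation.

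The study asked how loss of the transcription factor YY1 acts on erythroid cells across the cell cycle, and 24 of its 121 libraries measured gene expression. All 24 came from G1E-ER4, a mouse erythroid progenitor line that arose from embryonic stem cells lacking the erythroid factor GATA1 and in which an added GATA1 responds to hormone. The YY1 protein of the YY1-AID subline carries an auxin-inducible degron, so that auxin leads to breakdown of the protein. RNA-seq of asynchronous YY1-AID subline cells covered 0, 4, 24 and 48 h of auxin with 3 libraries per time. TT-seq, which sequences RNA labelled in a 5 min pulse of 500 µM 4-thiouridine and so reads recent synthesis, covered 4 h of auxin and untreated cells of the same subline with 3 libraries each. A separate RNA-seq table held untreated, asynchronous cells of YY1-AID subline 3 (called a clone in its titles), of the YY1-AID subline and of the parental line, with 2 libraries each. RNA of parental cells given auxin was not analysed here, so an action of auxin itself and of YY1 loss cannot be told apart. The labels do not say whether replicates are separate cultures, so p-values measure the spread between these libraries, part of which may be technical.

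Libraries held 25093000 to 26210181 counts in the time series, 35171508 to 44919735 in the untreated lines and 30229935 to 53453617 in TT-seq. Levels are given as CPM, library counts scaled to a common size with TMM factors, and changes as log2 fold changes with their standard error (SE) from edgeR's quasi-likelihood test. A change was called at an adjusted p (Benjamini-Hochberg, over all genes tested) under 0.05. Reads are not corrected for transcript length, so levels of different genes are not compared. Because the libraries are bulk RNA, fewer cells of a type and less RNA per cell cannot be told apart. Yy1 RNA was not called in any comparison, and with a degron acting on the protein it does not check the treatment. Of 14 erythroid markers 11 were listed in the time series and all 11 were tested, with a summed level of 4696 to 5084 CPM at 0 h, whereas the 4 lymphoid and 4 pluripotency markers stayed under 1 CPM each in all 4 groups.

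Ccnd1, the D-type cyclin common in many other tissues, was at or near 0 counts in these libraries. It had 1 estimated count in replicate 3 at 0 h and 1 in replicate 3 at 48 h, and 0 in the other 10 libraries of the time series, in all 6 untreated-line libraries and in all 6 TT-seq libraries. A level of up to 3 counts, which a count of 0 allows, corresponds to 0.112 to 0.123 CPM in the time series, counting error only. The gene did not pass the filter on low counts and was not tested, and the 9 other members passed in each table. The D-type cyclin RNA that could be followed was therefore that of Ccnd2 and Ccnd3.

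**Figure D1:**
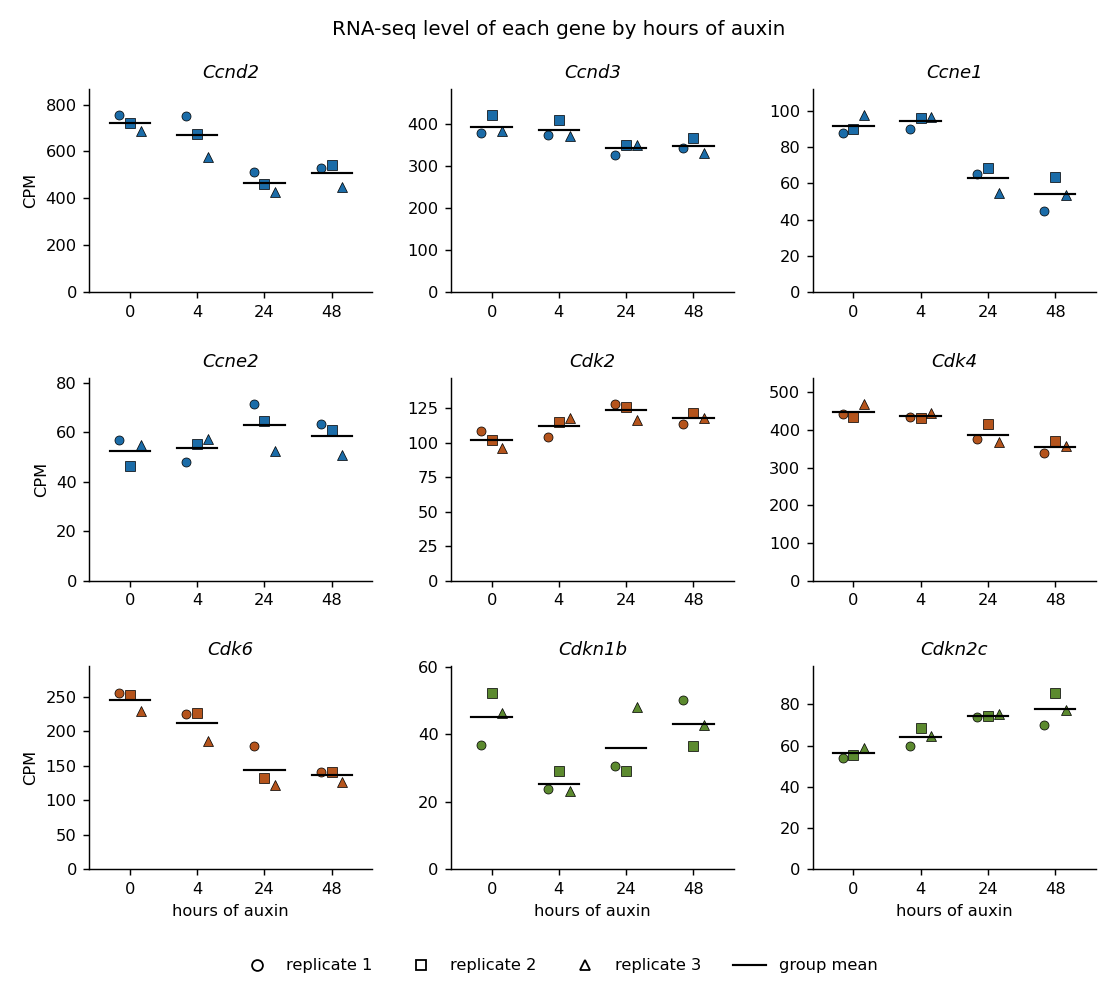
RNA-seq level of the 9 tested genes in CPM (y axis, from 0, a scale per gene) against hours of auxin (x axis), with a point per library, its shape giving the replicate, and a bar for the group mean. Cdk6 lay between 229 and 256 CPM at 0 h and between 127 and 141 CPM at 48 h, and Cdkn1b was lowest at 4 h, between 23.2 and 29.1 CPM.

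The members did not respond together. Of the 9 tested, 1 was lower at 4 h of auxin than at 0 h and none was higher, where 4.14% of all 15157 genes tested were lower, 3.14% higher and 7.28% either. At 24 h 5 were lower and 2 higher, where 21.5% of all genes were lower, 21.5% higher and 43% either. At 48 h again 5 were lower and 2 higher, where 24.6% of all genes were lower, 24.9% higher and 49.5% either. Groups did not overlap for 3 members at 4 h (27.2% of all genes), for 7 at 24 h (52.3%) and for 7 at 48 h (57.3%). The median log2 fold change over the 9 members was −0.03 at 4 h, −0.21 at 24 h and −0.18 at 48 h, beside 0.01, 0.03 and 0.03 over all genes tested. All 3 comparisons share the same 0 h libraries. For the count of 0 higher at 4 h, 1 member had an unadjusted p under 0.05, and DESeq2 also called 0.

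Cdkn1b, the 1 member called at 4 h, encodes a protein that holds cyclin E-CDK2 and cyclin A-CDK2 inactive. Cdkn1b RNA was at 23.7, 29.1 and 23.2 CPM after 4 h of auxin, against 36.8, 52.3 and 46.4 CPM at 0 h. All 3 libraries at 4 h lay below all 3 at 0 h, a log2 fold change of −0.83 ± 0.19 (SE, n = 3 each, edgeR adjusted p = 0.0189). It was not called later. Levels of 30.6, 29.1 and 48.1 CPM at 24 h and of 50.2, 36.5 and 42.8 CPM at 48 h overlapped those at 0 h, and neither time was called (log2 fold changes −0.33 ± 0.19 and −0.07 ± 0.19, edgeR adjusted p = 0.175 and 0.8). Between 24 h and 4 h the log2 difference was 0.50 ± 0.19, which missed the threshold (edgeR adjusted p = 0.057) but passed it with DESeq2 (0.0264), with no filter on low counts (0.00105) and without replicate 1 or 2 of 24 h (0.0437 and 0.0303). Cdkn1b would have been called lower at 24 h without replicate 3 of that time (log2 fold change −0.61, edgeR adjusted p = 0.0109) or with no filter on low counts (0.0252). The 4 h call was lost without replicate 2 or 3 at 0 h or without replicate 1 or 3 at 4 h (edgeR adjusted p up to 0.0771), while its log2 fold change stayed between −0.98 and −0.73 over all alternatives.

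TT-seq at the same time showed the same gene lower in newly made RNA. Cdkn1b had 14.4, 11 and 9.49 CPM in auxin libraries, against 23.4, 19.3 and 16.5 CPM in untreated libraries, with no overlap between the groups. The log2 fold change was −0.77 ± 0.18 (SE, n = 3 each, edgeR adjusted p = 0.0346), in a comparison in which 7.09% of 11218 genes were called lower, 2.11% higher and 9.2% either. Cdkn1b was the only member called lower in TT-seq, and Ccne2 the only one called higher, and only in these 2 of 9 did the groups not overlap (29.3% of all genes). The Cdkn1b call was lost without any 1 of the 3 untreated libraries or auxin replicate 2 or 3 (log2 fold change −0.89 to −0.63, edgeR adjusted p up to 0.141). Libraries of the same replicate number deviated together in TT-seq, though the labels do not say that they are paired. With the number as a block the Cdkn1b difference had an edgeR adjusted p of 7.82e-19. In that fit 25.3% of all genes were called lower and 47.9% either. The block was taken from these same libraries, so its p-value is not separate support.

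The start of Cdkn1b is shown because it was the only member window holding the word that YY1 is best known to bind. RefSeq promoter windows (250 bases before to 50 after the start, build GRCm38.p6, a build other than the mm9 of the counts) were matched by symbol for 7 of the 10 members in 9 windows; Ccnd1, Ccnd2 and Ccne2 had none. The word AANATGGCG was searched on both strands and stood in 1 of the 9 windows, that of Cdkn1b, and in 2.38% of all 32851 windows. The shorter ATGGCG, which is part of it, stood in 8.93% of all windows and likewise in the Cdkn1b window alone among the 9. The match lies on the minus strand, and its first base in the printed direction is base 40 counted from the start. In the 30 bases below, chr6:134920421-134920450 on the plus strand, capitals mark it.
Cdkn1b: tcgtcagcctcccttccacCGCCATATTgg
A match of letters is not a measurement of binding, and the words were chosen with the results of these data known.

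Of the D-type cyclins, both Ccnd2 and Ccnd3 were lower at 24 and 48 h, Ccnd2 at 0.648 and Ccnd3 at 0.868 of the 0 h level at 24 h. Ccnd2 is the D-type cyclin that STAT5 is known to induce. Ccnd2 RNA was at 754, 719.7 and 688 CPM at 0 h, 753, 673 and 578 CPM at 4 h, 512, 461 and 428 CPM at 24 h, and 532, 541 and 449 CPM at 48 h. Every library of 24 and 48 h lay below every library of 0 h. The log2 fold changes against 0 h were −0.11 ± 0.10 at 4 h (edgeR adjusted p = 0.59), −0.63 ± 0.10 at 24 h (0.000226) and −0.51 ± 0.10 at 48 h (0.0008). Ccnd3 RNA was at 379, 421 and 384 CPM at 0 h, 375, 410.2 and 371 CPM at 4 h, 326, 351 and 351 CPM at 24 h, and 343, 368 and 332 CPM at 48 h. The later groups again did not overlap 0 h, but the log2 fold changes were small, −0.20 ± 0.06 at 24 h and −0.18 ± 0.06 at 48 h (edgeR adjusted p = 0.0196 and 0.0276). Those 2 calls were lost without replicate 2 at 0 h (edgeR adjusted p = 0.0754 and 0.0887), the first also without replicate 1 at 24 h (0.0611) and the second also without replicate 1 or 3 at 48 h (0.0527 and 0.102).

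Both partner kinases of the D-type cyclins fell, and Cdk6 had the largest fitted log2 change of the 9 members at 24 and 48 h. Its RNA was at 256, 253 and 229 CPM at 0 h, 225, 227 and 186 CPM at 4 h, 179, 132 and 122 CPM at 24 h, and 141, 141 and 127 CPM at 48 h. The groups were already apart at 4 h, with a log2 fold change of −0.21 ± 0.12 that was not called (edgeR adjusted p = 0.346). At 24 h it was −0.77 ± 0.12 (edgeR adjusted p = 0.000208) and at 48 h −0.85 ± 0.12 (6.17e-05), so that 0.553 of the 0 h level was left. Cdk4 stood at 442, 435 and 469 CPM at 0 h, 436, 431 and 445 CPM at 4 h, 376, 415 and 369 CPM at 24 h, and 339, 370.0 and 357 CPM at 48 h. The 24 h and 48 h libraries all lay below those of 0 h, with log2 fold changes of −0.21 ± 0.06 and −0.34 ± 0.06 (edgeR adjusted p = 0.00957 and 0.000319).

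The promoter window of Cdk4 is printed because it carries 4 copies of CACGTG, the E-box bound by MYC and related factors. This word too was chosen with the results of these data known. CACGTG, which reads the same on both strands, stood in 3 of the 9 member windows, those of Cdk4, Cdk6 and 1 of the 2 windows of Cdkn2c. Among all 32851 windows 7.15% held it at least once and 8 windows (0.0244%) held it at least 4 times. The Cdk6 window held 1 copy, and Cdkn2c, with 1 copy in 1 of its windows, was higher at 24 and 48 h. E2F words (TTTCCCGC, TTTCGCGC, TTTGGCGC and TTTGCCGC) were also searched on both strands. They stood in 1 of the 9 windows, that of Cdk2, which was higher at both times, and in 2.26% of all windows. The 250 bases before the start of Cdk4, chr10:127063285-127063534 on the plus strand, follow with the 4 E-boxes in capitals.
Cdk4: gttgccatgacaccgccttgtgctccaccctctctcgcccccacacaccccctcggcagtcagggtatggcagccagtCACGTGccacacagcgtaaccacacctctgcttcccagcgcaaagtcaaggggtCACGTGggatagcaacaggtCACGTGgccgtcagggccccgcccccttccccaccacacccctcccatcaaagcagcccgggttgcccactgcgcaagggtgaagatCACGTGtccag
Whether MYC binds there in these cells was not measured, and a part of Myc in the level of Cdk4 was not tested.

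Of the E-type cyclins, which activate CDK2, Ccne1 fell at 24 and 48 h and Ccne2 was not called at any time. Ccne1 was at 87.7, 90.1 and 97.4 CPM at 0 h, 90.0, 95.9 and 96.7 CPM at 4 h, 65.2, 68.6 and 54.9 CPM at 24 h, and 44.8, 63.7 and 53.4 CPM at 48 h. The 4 h libraries lay within the range of 0 h, and all 6 later libraries lay below it. Its log2 fold changes were 0.04 ± 0.11 at 4 h (edgeR adjusted p = 0.891), −0.54 ± 0.11 at 24 h (0.00146) and −0.76 ± 0.11 at 48 h (7.72e-05). Ccne2 was at 56.8, 46.5 and 54.8 CPM at 0 h, 48.2, 55.3 and 57.2 CPM at 4 h, 71.5, 64.6 and 52.4 CPM at 24 h, and 63.6, 60.8 and 50.9 CPM at 48 h. These groups overlapped, and no time was called (log2 fold change at 24 h 0.25 ± 0.12, 95% interval −0.01 to 0.52, edgeR adjusted p = 0.109). Without replicate 3 at 24 h Ccne2 would have been called there (log2 fold change 0.36, edgeR adjusted p = 0.0262).

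Their kinase Cdk2 rose at 24 and 48 h. It had 108, 102 and 96.2 CPM at 0 h, 104, 115 and 118 CPM at 4 h, 128, 126 and 116 CPM at 24 h, and 113, 121 and 118 CPM at 48 h. All later libraries exceeded those of 0 h at 24 and 48 h, by log2 fold changes of 0.27 ± 0.07 and 0.20 ± 0.07 (edgeR adjusted p = 0.00451 and 0.02). The 48 h call was lost with no filter on low counts (edgeR adjusted p = 0.068) and without replicate 2 or 3 at 0 h (0.062 and 0.104) or at 48 h (0.0702 and 0.0537).

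Cdkn2c, the INK4 inhibitor of CDK4 and CDK6, was the member with the largest called rise in the time series. It was at 54.0, 55.6 and 58.9 CPM at 0 h, 59.7, 68.4 and 64.7 CPM at 4 h, 73.8, 74.2 and 75.4 CPM at 24 h, and 70.2, 85.6 and 77.4 CPM at 48 h. From 4 h on every library exceeded every library of 0 h. The log2 fold change was 0.19 ± 0.08 at 4 h (edgeR adjusted p = 0.158), 0.41 ± 0.08 at 24 h (0.000861) and 0.47 ± 0.08 at 48 h (0.000207).

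**Figure D2:**
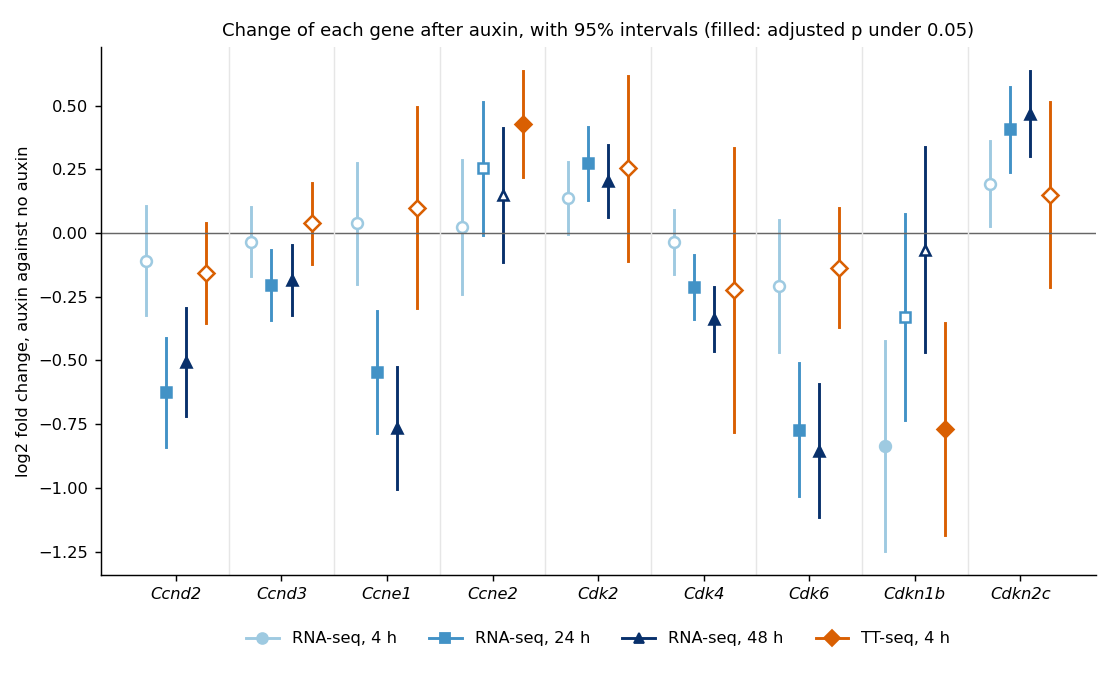
Log2 fold change (y axis) of the 9 tested genes (x axis) for 4, 24 and 48 h of auxin against 0 h in RNA-seq and for 4 h of auxin against untreated cells in TT-seq, with 95% intervals from edgeR and filled symbols where the adjusted p is under 0.05. Cdkn1b is filled at 4 h in both assays and open at 24 and 48 h. At both later times Ccnd2, Ccnd3, Ccne1, Cdk4 and Cdk6 are filled below 0 and Cdk2 and Cdkn2c above 0.

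A direct comparison of 24 h with 4 h tested whether the later changes were larger than the early ones. Ccnd2 (log2 fold change −0.52 ± 0.10), Ccne1 (−0.58 ± 0.11), Cdk4 (−0.18 ± 0.06) and Cdk6 (−0.56 ± 0.12) were lower at 24 h than at 4 h, with edgeR adjusted p of 0.00138, 0.00131, 0.0317 and 0.00291 (17.7% of all genes were called lower and 33.6% either). Cdkn2c was higher at 24 h (0.21 ± 0.08, edgeR adjusted p = 0.0467; 15.9% of all genes were called higher). The calls of Ccnd2, Ccne1 and Cdk6 held in all 11 alternatives, whereas Cdk4 was called in 4 of 11 and Cdkn2c in 5 of 11. The Cdk4 call was lost without any 1 of the 3 libraries of 4 h or replicate 1 or 3 of 24 h, with no filter on low counts and with the 2 groups fitted alone (edgeR adjusted p up to 0.122), and the Cdkn2c call without replicate 1 or 3 of 4 h or any 1 of the 3 libraries of 24 h and with no filter (up to 0.148). Groups did not overlap for 6 of the 9 members (46.2% of all genes), those 5 and Ccnd3 (−0.17 ± 0.06, edgeR adjusted p = 0.0544). Between 48 h and 24 h none of the 9 members was called by edgeR (2.84% of all genes were lower, 3.03% higher and 5.87% either), groups overlapped for all 9 (23.7% of all genes did not overlap), 0 had an unadjusted p under 0.05, and DESeq2 called 0. The 95% intervals of that difference for Cdk6 (−0.34 to 0.18) and Ccne1 (−0.46 to 0.02) include 0 and values below it.

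The balance of related members was taken within each library. The log2 CPM of Ccne2 minus that of Ccne1 was −0.01 ± 0.12 at 24 h and 0.12 ± 0.33 at 48 h, against −0.80 ± 0.16 at 0 h (SD, n = 3 each). For Ccnd3 minus Ccnd2 it was −0.44 ± 0.19 at 24 h and −0.54 ± 0.10 at 48 h, against −0.87 ± 0.11 at 0 h. For Cdk6 minus Cdk4 it was −1.44 ± 0.32 at 24 h and −1.38 ± 0.11 at 48 h, against −0.87 ± 0.14 at 0 h. Of these 3 pairs the groups did not overlap at either later time. For the inhibitors, Cdkn2c minus Cdkn1b was 1.35 ± 0.12 at 4 h, against 0.33 ± 0.23 at 0 h, and its groups did not overlap at 4 or 24 h. With 3 libraries against 3 a two-sided exact permutation test cannot give a p below 0.1, and 8 of the 12 changes tested had that p, 0.15 after Benjamini-Hochberg adjustment over the 12, so none passed a threshold of 0.05.

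**Figure D3:**
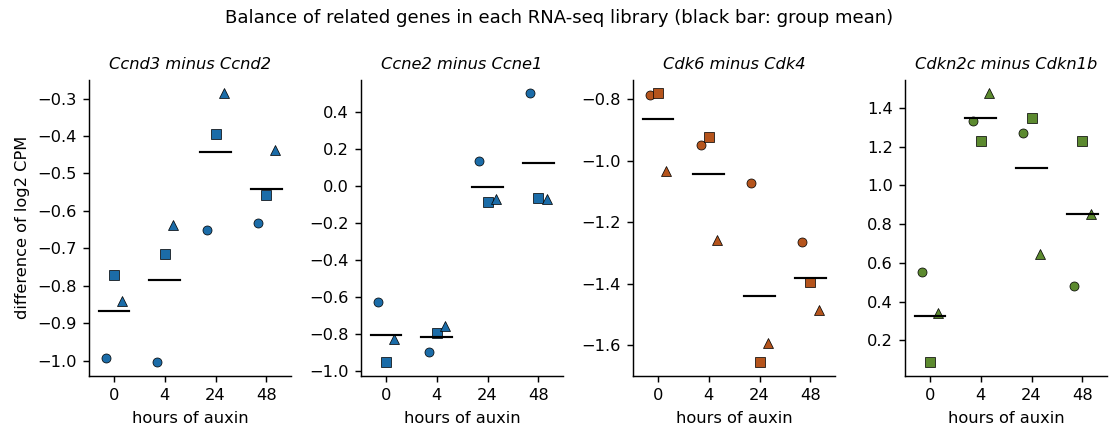
Difference of log2 CPM between related genes (y axis) in each library of the time series against hours of auxin (x axis), with a point per library, its shape giving replicate 1 (circle), 2 (square) or 3 (triangle), and a bar for the group mean. Ccne2 minus Ccne1 averaged −0.01 at 24 h and 0.12 at 48 h, against −0.80 at 0 h, and Cdkn2c minus Cdkn1b averaged 1.35 at 4 h, against 0.33 at 0 h.

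In newly made RNA at 4 h most members differed little. Beside Cdkn1b, Ccne2 was called, with 61.0, 56.2 and 52.6 CPM in auxin libraries, against 45.2, 40.5 and 40.5 CPM in untreated libraries (log2 fold change 0.43 ± 0.09, edgeR adjusted p = 0.0236). That call was lost without untreated replicate 2 or 3 or auxin replicate 1 or 3 (log2 fold change 0.37 to 0.48, edgeR adjusted p up to 0.125). In steady-state RNA at 4 h the log2 fold change of Ccne2 was 0.02 ± 0.12, in another table. Cdk6 had 658, 780.0 and 705 CPM in auxin libraries, against 751, 846 and 759 CPM in untreated libraries (−0.14 ± 0.10, edgeR adjusted p = 0.475). Ccnd2 had 255, 224 and 231 CPM in auxin libraries, against 278, 255 and 258 CPM in untreated libraries (−0.16 ± 0.09, edgeR adjusted p = 0.325). In both genes the groups overlapped, and each auxin library was below the untreated library of its own number.

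With the replicate number as a block, edgeR called Ccne2 (log2 fold change 0.43), Cdk2 (0.26) and Cdkn2c (0.15) higher and Ccnd2 (−0.16), Cdk4 (−0.24), Cdk6 (−0.14) and Cdkn1b (−0.77) lower, with adjusted p of 0.0336 or less. In that fit 22.7% of all genes were called higher, 25.3% lower and 47.9% either, against which 3 higher and 4 lower of 9 members have to be read. Ccnd3 had 99.1, 103 and 99.8 CPM in auxin libraries, against 99.1, 98.4 and 96.3 CPM in untreated libraries, and Ccne1 had 40.5, 28.7 and 35.9 CPM, against 39.2, 26.1 and 32.8 CPM. Neither was called in either fit, with log2 fold changes of 0.04 ± 0.07 and 0.10 ± 0.17 without the block.

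For Cdk4 and Cdk2 the replicate numbers differed more than the groups. Cdk4 had 53.0, 28.2 and 36.1 CPM in auxin libraries, against 58.2, 36.4 and 42.0 CPM in untreated libraries, and Cdk2 had 31.7, 23.1 and 29.0 CPM, against 27.6, 19.5 and 23.2 CPM. Libraries numbered 1 were the highest in both groups, and the within-number log2 differences of Cdk4 ran from −0.37 to −0.14 and those of Cdk2 from 0.20 to 0.32. Cdkn2c had 27.1, 21.2 and 19.7 CPM in auxin libraries, against 24.3, 19.0 and 17.9 CPM in untreated libraries, with within-number differences of 0.14 to 0.15. The ribosomal RNA precursor Rn45s took 22.2% to 38.8% of a TT-seq library and was highest in the 2 libraries numbered 1. Without Rn45s the same 2 members were called, and its part in the result was otherwise not tested. Scaled to the Drosophila spike-in RNA without a block, edgeR called none of the 9 members (1 gene of 11218 in all), and the log2 fold changes were −0.85 for Cdkn1b and 0.37 for Ccne2. With the spike-in and the block together 2 members were higher and 4 lower, where 10.1% of all genes were higher, 21.5% lower and 31.5% either.

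**Figure D4:**
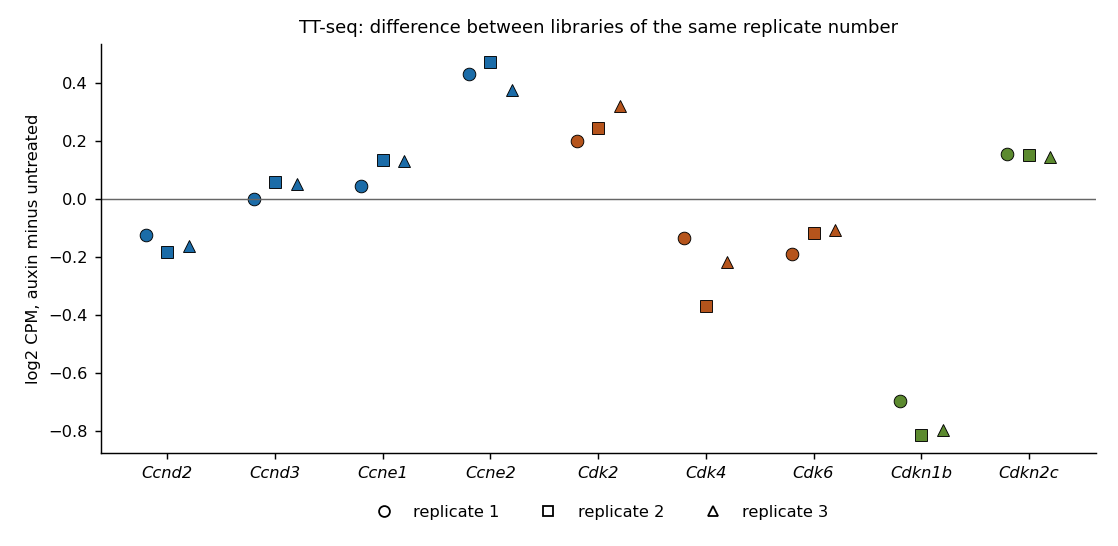
TT-seq difference of log2 CPM, 4 h of auxin minus untreated (y axis), between libraries of the same replicate number for the 9 tested genes (x axis), with a point per number. All 3 numbers lie between −0.81 and −0.70 for Cdkn1b and between 0.38 and 0.47 for Ccne2, and the other 7 genes lie between −0.37 and 0.32.

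Between untreated lines the fit without a block called almost no gene, so that the lack of a call says little about the members. For YY1-AID subline 3 against parental, the YY1-AID subline against parental and subline 3 against the subline, 0 of 9 members were called by edgeR in each, where 0%, 0% and 0.0826% of 10892 genes were called. DESeq2 called 0 members in each. Only Cdkn2c in subline 3 against parental had an unadjusted p under 0.05. In the same order of comparisons 534, 557 and 572 genes in all had an unadjusted p under 0.05. The 95% intervals were wide, from −2.22 to 1.80 on the log2 scale for Cdk6 and from −0.10 to 0.75 for Cdkn2c in the YY1-AID subline against parental. Libraries of the same number deviated together in this table (correlations 0.63 to 0.74), and values are therefore given by number.

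Cdkn2c, Ccnd3 and Ccne2 had higher values in both degron lines than in parental cells for both numbers. Cdkn2c had 58.8 and 52.3 CPM in subline 3 and 46.3 and 45.8 CPM in the YY1-AID subline, against 38.2 and 35.5 CPM in parental cells. Its log2 difference from parental was 0.62 and 0.56 in subline 3 and 0.28 and 0.37 in the YY1-AID subline. Ccnd3 had 372 and 306 CPM in subline 3 and 395 and 308 CPM in the YY1-AID subline, against 282 and 240.3 CPM in parental cells, log2 differences of 0.40 and 0.35 and of 0.49 and 0.36. For Ccne2 the log2 differences from parental were 0.80 and 0.37 in subline 3 and 0.53 and 0.37 in the YY1-AID subline, with groups that overlapped. Groups did not overlap for Cdkn2c and Ccnd3, 2 of 9 members, in subline 3 against parental (27.4% of all genes) and in the subline against parental (21.3%), and for Cdkn2c in subline 3 against the subline (26.9%). Erythroid markers, 12 of 14 listed, summed to 4086 to 4725 CPM in subline 3 and 4156 to 4787 CPM in the subline, against 2032 to 2728 CPM in parental cells, and their part in these differences was not tested. With the number as a block, edgeR called Ccnd3, Ccne2, Cdkn1b and Cdkn2c higher in subline 3 than in parental cells (adjusted p = 0.0488, 0.0363, 0.0451 and 0.015; 4.2% of all genes were called higher, 2.05% lower and 6.24% either). Ccnd3 was higher in the YY1-AID subline than in parental cells (adjusted p = 0.0397; 1.63% of all genes higher, 2.4% lower and 4.02% either), and Cdk6 and Cdkn1b were higher in subline 3 than in the subline (0.023 and 0.0474; 4.43% higher, 1.74% lower and 6.18% either).

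For several members the libraries differed more by number than by line. Cdk6 had 22.7 and 55.5 CPM in subline 3, 13.1 and 40.1 CPM in the YY1-AID subline and 15.0 and 46.6 CPM in parental cells. Cdkn1b had 37.2 and 58.1 CPM, 19.7 and 45.7 CPM, and 19.2 and 45.8 CPM in the same order of lines. Ccne2 had 28.5 and 41.1 CPM, 23.6 and 41.0 CPM, and 16.4 and 31.8 CPM, and Ccnd2 had 364 and 513 CPM, 272 and 512 CPM, and 271 and 534 CPM. Replicate 2 was above replicate 1 in all 3 lines for these 4 genes. For Cdk4, at 473 and 397 CPM, 514 and 429 CPM, and 488 and 407 CPM, replicate 1 was the higher in all 3 lines. Cdk2 lay between 78.6 and 90.8 CPM and Ccne1 between 60.6 and 77.7 CPM over the 6 libraries.

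**Figure D5:**
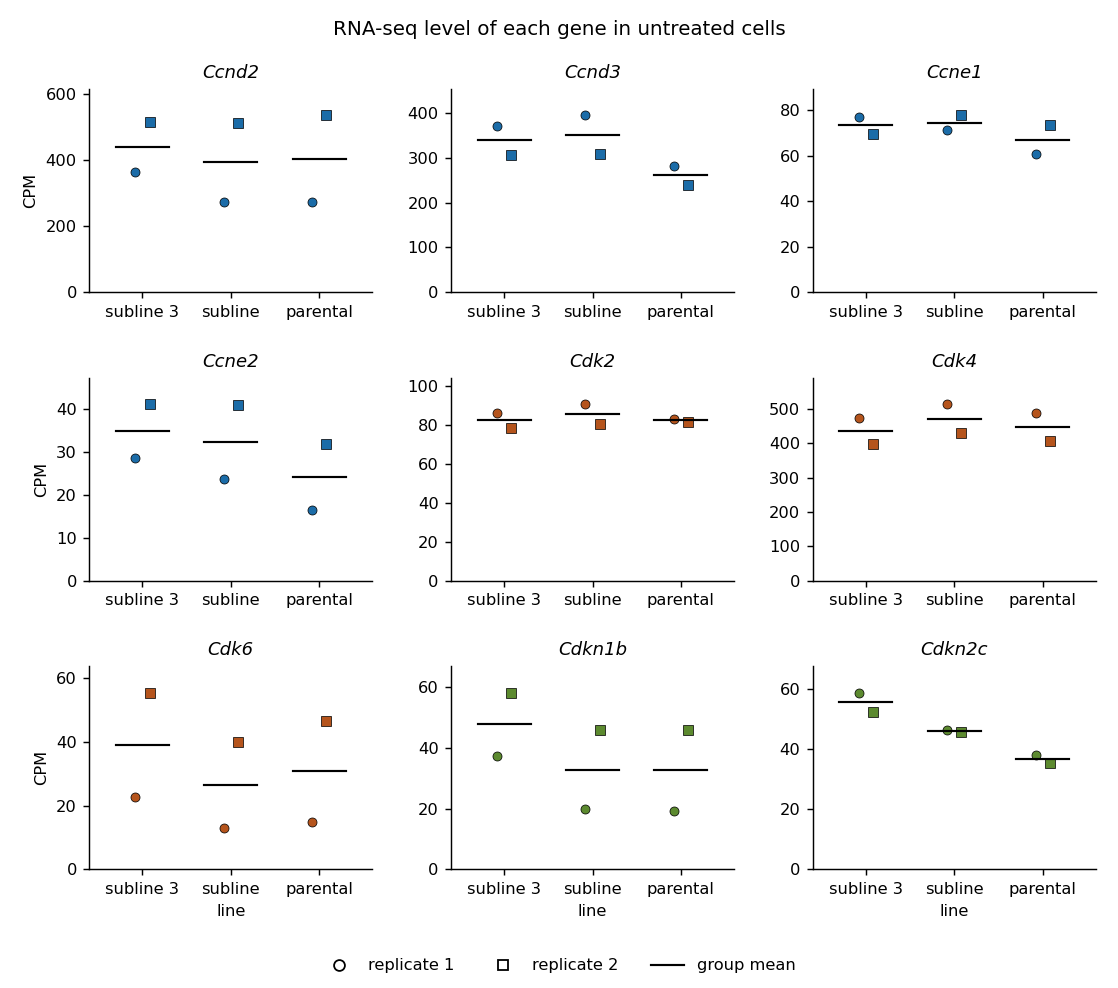
RNA-seq level of the 9 tested genes in CPM (y axis, from 0, a scale per gene) in untreated YY1-AID subline 3, YY1-AID subline and parental cells (x axis), with a point per library, circles for replicate 1 and squares for replicate 2, and a bar for the group mean. Cdk6 lies between 40.1 and 55.5 CPM in the replicates numbered 2 and between 13.1 and 22.7 CPM in those numbered 1, and Cdkn2c lies above 45 CPM in both degron lines and below 39 CPM in parental cells.

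Other genes of G1 control were described by lists chosen for their function, likewise with earlier results of these data known. Of 5 other inhibitors of these kinases 3 were tested in the time series. All 3 were higher at 24 h and at 48 h, where 21.5% and 24.9% of all genes were higher. Their median log2 fold changes were 0.67 and 0.81, beside 0.03 and 0.03 over all genes. Cdkn1a, a general inhibitor and target of p53, averaged 207 ± 12.3 CPM at 24 h and 228 ± 11.1 CPM at 48 h, against 130.3 ± 12.5 CPM at 0 h (SD, n = 3 each; log2 fold changes 0.67 ± 0.09 and 0.81 ± 0.09, edgeR adjusted p = 5.55e-05 and 7.2e-06). Cdkn2d, another INK4 inhibitor, averaged 29.4 ± 3.15 CPM at 24 h, against 23.5 ± 4.16 CPM at 0 h (0.32 ± 0.11, edgeR adjusted p = 0.0344). Cdkn2b rose by 1.31 ± 0.27 on the log2 scale at 24 h, at a level of 1.53 CPM against 0.614 CPM at 0 h. At 4 h none of the 3 was called by edgeR, where 7.28% of all genes were called.

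Of the 13 pocket proteins and E2F factors, through which the cyclin D kinases act, 2 were higher and 7 lower at 24 h, and 3 were higher and 6 lower at 48 h. Their median log2 fold changes were −0.27 and −0.19. Over all genes tested, 21.5% were higher and 21.5% lower at 24 h, and 24.9% higher and 24.6% lower at 48 h. The retinoblastoma gene Rb1, averaged 220.8 ± 22.2 CPM at 24 h and 289.7 ± 13.0 CPM at 48 h, against 175 ± 22.0 CPM at 0 h (log2 fold change at 48 h 0.72 ± 0.09, edgeR adjusted p = 1.93e-05). E2f4, a repressive E2F, averaged 103 ± 6.21 CPM at 24 h, against 150.0 ± 1.33 CPM at 0 h (−0.55 ± 0.06, edgeR adjusted p = 7.79e-06), and E2f6 was lower by −0.53 ± 0.08 and Tfdp2, an E2F partner, higher by 0.45 ± 0.08.

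Of 14 genes that E2F turns on for S phase 2 were lower at 4 h (Mcm5 and Rrm2), 9 at 24 h and 13 at 48 h, and none was higher at any time by edgeR. The median log2 fold change was −0.11 at 4 h, −0.26 at 24 h and −0.53 at 48 h. At these times 4.14%, 21.5% and 24.6% of all genes were lower and 3.14%, 21.5% and 24.9% higher. Mcm5, a subunit of the replicative helicase, averaged 472 ± 12.1 CPM at 4 h, 313 ± 20.3 CPM at 24 h and 249.6 ± 15.4 CPM at 48 h, against 574 ± 20.9 CPM at 0 h (log2 fold changes −0.28 ± 0.06, −0.88 ± 0.06 and −1.20 ± 0.06). Mcm3 was lower by −0.39 ± 0.05 at 24 h and Rrm2, a ribonucleotide reductase subunit, by −0.45 ± 0.06.

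Of 7 tested genes for signals and factors upstream of the D-type cyclins 6 were lower at 24 h and at 48 h and none was higher. Their median log2 fold changes were −0.54 and −0.51. Among all genes 21.5% were lower and 21.5% higher at 24 h, and 24.6% lower and 24.9% higher at 48 h. Myc averaged 166 ± 5.72 CPM at 24 h and 160.4 ± 6.81 CPM at 48 h, against 312 ± 12.1 CPM at 0 h (−0.91 ± 0.07 and −0.96 ± 0.07, edgeR adjusted p = 4.05e-07 and 1.51e-07). Stat5a, which carries erythropoietin signals, averaged 65.2 ± 4.52 CPM at 24 h, against 103 ± 5.03 CPM at 0 h (−0.65 ± 0.07), and the erythropoietin receptor Epor was lower by −0.31 ± 0.06. Kit, the stem cell factor receptor, was lower by −0.57 ± 0.10 at 24 h. It was the gene of this list called in TT-seq at 4 h (−0.39 ± 0.09, edgeR adjusted p = 0.0278), where 9.2% of all genes were called.

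Of 7 genes that control the activation of cyclin-dependent kinases 3 were higher and 2 lower at 24 h. At 48 h 3 were higher and 3 lower. The list mixes activators with Wee1, a kinase that inhibits them, so its counts do not give a direction of activity. Wee1 averaged 52.7 ± 6.57 CPM at 24 h and 50.6 ± 1.78 CPM at 48 h, against 59.5 ± 1.76 CPM at 0 h (SD, n = 3 each). Cdc25b and Cdc25c, phosphatases that activate mitotic kinases, were higher by 0.91 ± 0.09 and 0.72 ± 0.11, whereas Cdc25a, which acts on CDK2, and Cdk7 of the CDK-activating kinase were lower by −0.34 ± 0.07 and −0.28 ± 0.06. Of 9 ubiquitin ligase genes for G1 regulators 3 were higher at 24 h and 1 at 48 h and none was lower. Fbxo4, an F-box protein, was higher by 0.71 ± 0.10 at 24 h, and Skp2, which targets the CDKN1B protein, by 0.19 ± 0.07 (edgeR adjusted p = 0.0377). Of 5 cyclin and kinase genes of S, G2 and M phase 2 were higher and 2 lower at 24 h, with Ccnb2 at 0.50 ± 0.07 and Ccnb1 at −0.27 ± 0.06. The counts of these lists stand beside 21.5% of all genes higher and 21.5% lower at 24 h. At 48 h 24.9% of all genes were higher and 24.6% lower. In TT-seq E2f7 was the called gene of its list (0.31 ± 0.07, edgeR adjusted p = 0.0335), and Fzr1, an activator of the anaphase-promoting complex, was lower (−0.34 ± 0.08, edgeR adjusted p = 0.0346). There 2.11% of all genes were called higher and 7.09% lower.

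Markers of maturation and of another lineage moved in the same libraries as the members. Of 11 erythroid markers tested 5 were higher and 4 lower at 24 h, with Slc4a1, the anion exchanger of red cells, higher by 2.30 ± 0.26 on the log2 scale and the transferrin receptor Tfrc and the erythroid factor Klf1 lower, at −0.39 ± 0.08 and −0.34 ± 0.07. The summed level of the erythroid list was 4021 to 4279 CPM at 24 h and 5188 to 6305 CPM at 48 h, against 4696 to 5084 CPM at 0 h. Of 7 megakaryocyte markers tested 2 were higher at 24 h and 4 at 48 h, their sum being 125 to 169 CPM at 24 h and 248 to 285 CPM at 48 h, against 61.2 to 82.1 CPM at 0 h, with Gp1bb at 0 throughout. Itga2b and Gp9 led them (log2 fold changes at 48 h 2.71 ± 0.13 and 3.62 ± 0.19). Myeloid markers summed to at most 2.54 CPM in any library of the time series and mast cell markers to 38.0 to 87.7 CPM, of which 1 of 2 tested was higher at 24 h in each list. Beside these counts, 21.5% of all genes were higher and 21.5% lower at 24 h, and 24.9% higher and 24.6% lower at 48 h. The part of these marker changes in the members' values was not tested.

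Genes whose profiles over the 12 time series libraries lay closest to each of the 7 members called at 24 and 48 h were found among 8304 genes by the root mean square (RMS) difference of centred log2 CPM. Ccnd2 lay closest to Cd164 (0.05), Dhx9 (0.07) and Stat5a (0.08), beside its own RMS deviation of 0.29. Cdk6 lay closest to Atp13a3, Tnpo1 and Syncrip (0.08 to 0.10, own deviation 0.39), and Ccne1 to Nop9, Gadd45gip1 and Gas2l1 (0.08 each, own deviation 0.37). Cdk4 lay closest to Dcun1d5, Cdc37 and Ruvbl1 (0.03 to 0.04, own deviation 0.15) and Ccnd3 to Dazap2, Gosr2 and Trp53 (0.04 to 0.05, own deviation 0.11). Those closest to Cdk2 were Fam53a, Ap1m1 and Tspan31 (0.05 to 0.07, own deviation 0.12), and those closest to Cdkn2c were Galnt4, Foxo4 and Psenen (0.06 each, own deviation 0.20). Between members the closest pairs were Ccnd3 with Cdk4 (0.10), Ccne2 with Cdk2 (0.13), Cdk2 with Cdkn2c (0.13) and Ccnd2 with Cdk6 (0.15), and the most distant was Ccne1 with Cdkn1b (0.66). These distances are descriptions over libraries that share depth and treatment.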

How the data were processed

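The members and gene lists were chosen with earlier results of these data known. For RNA-seq the authors deposited estimated counts by gene symbol, in whole numbers. Salmon 0.13.1, DESeq2 and mm9 are named for them per the submitters' processing notes. For TT-seq the authors deposited gene counts of mouse and of a Drosophila spike-in (500 ng of S2 RNA for each 100 µg, per the labels). The tools named there are Trim Galore 0.6.10, STAR and SAMtools, per the submitters' processing notes. Neither the transcript set nor the strand setting is stated in the sources used here. Reads in no feature, 17.2% to 22.2% in TT-seq, were left out.

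Each table was fitted in edgeR 4.0.16 (R 4.3.3) with TMM scaling, the filterByExpr filter on low counts, all groups of a table together and no replicate term. The fits covered 15157, 10892 and 11218 genes and were tested on simulated data. There the fits of 15157 and 11218 genes recovered 197 and 196 of 200 genes set to differ by 1 on the log2 scale. The fit of 10892 genes, that of the untreated lines, recovered 0 of 200. Profiles and differences within libraries use log2 CPM with a prior count of 2. Deviations from group means of same-numbered libraries correlated at 0.40 to 0.66 in TT-seq, where the numbers were taken to pair libraries from the data alone. The correlations were 0.63 to 0.74 in the untreated lines, with 2 libraries per group, and −0.07 to 0.10 in the time series, where numbers were not taken to pair libraries. Alternatives were DESeq2 1.42.0, RLE scaling, no filter, a prior count of 0.5, a replicate block, each library left out, only the groups compared, spike-in sizes and Rn45s left out. Named in the text are all members, up to 4 called genes per list and comparison with the smallest p, such genes followed elsewhere, and the 3 nearest profiles among genes averaging 3 or more in log2 CPM. Marker genes illustrate their lists and were chosen after their values were seen. Promoter windows are those of RefSeq (GRCm38.p6). ChIP-seq and Micro-C files were not used here.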

Additional observations from a re-analysis of the deposited data

Results flagged for a closer look

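The change of a member between auxin times was itself called for 5 of the 9 members tested, as a difference between 24 h and 4 h of the same treatment. Among all 15157 genes tested, 33.6% were called in this comparison and 46.2% had groups that did not overlap. The calls of Ccnd2, Ccne1 and Cdk6 held in all 11 alternatives, that of Cdk4 in 4 of 11 and that of Cdkn2c in 5 of 11. The log2 differences, 24 h against 4 h, were −0.52 for Ccnd2, −0.58 for Ccne1, −0.18 for Cdk4, −0.56 for Cdk6 and 0.21 for Cdkn2c, with 3 libraries at each time and groups that did not overlap in any of the 5.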

How the results depend on the processing

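Ccnd2, Ccne1, Cdk4, Cdk6 and Cdkn2c kept their calls and directions at 24 and 48 h in all 11 alternatives, and Cdk2 did so at 24 h. Leaving out a library moved the count of members lower at 4 h between 0 and 1. At 24 h it moved the count lower between 4 and 6 and the count higher between 2 and 3. At 48 h the counts ran from 4 to 5 lower and from 1 to 2 higher. For 24 h against 4 h they ran from 3 to 4 lower and from 0 to 1 higher, and both TT-seq counts ran from 0 to 1. DESeq2 gave 2 higher (Cdkn2c and Cdkn1b) and 5 lower at 24 h against 4 h, adding Ccnd3 to the lower (adjusted p = 0.0340), and no filter on low counts gave 1 higher at 48 h. The replicate block gave 3 higher and 4 lower in TT-seq and 1, 4 and 2 higher for the YY1-AID subline against parental, subline 3 against parental and subline 3 against the subline; in the time series it changed no call of a member against 0 h and likewise added Ccnd3 at 24 h against 4 h (edgeR adjusted p = 0.0127), and same-numbered libraries there shared only a number. Spike-in sizes gave 0 higher and 0 lower in TT-seq, with the block 2 and 4, and leaving out both libraries numbered 1, chosen after seeing the data, gave 0 higher. The cause was not tested.

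Signs turned only in values that were not called. With the 2 groups fitted alone, Cdkn1b in the YY1-AID subline against parental was −0.017, with the block Cdk2 in subline 3 against parental was −0.00059, and with spike-in sizes Ccnd3 in TT-seq was −0.015. Log2 ranges over libraries left out were −0.0100 to 0.070 for Ccne1 and −0.074 to 0.078 for Ccne2 at 4 h, −0.21 to 0.039 for Cdkn1b at 48 h, −0.026 to 0.051 for Ccnd3, −0.19 to 0.10 for Cdk6 and −0.016 to 0.12 for Cdkn2c at 48 h against 24 h, and −0.043 to 0.25 for Ccne1 in TT-seq. For the YY1-AID subline against parental they were −0.56 to 0.53 (Ccnd2), −0.027 to 0.98 (Ccne2), −0.029 to 0.14 (Cdk2), −0.059 to 0.22 (Cdk4), −1.23 to 0.83 (Cdk6) and −0.72 to 0.76 (Cdkn1b). For subline 3 against parental they were −0.28 to 0.69 (Ccnd2), −0.00059 to 0.28 (Ccne1), −0.056 to 0.072 (Cdk2), −0.16 to 0.10 (Cdk4) and −0.44 to 1.38 (Cdk6). For subline 3 against the subline they were −0.22 to 0.69 (Ccnd2), −0.22 to 0.14 (Ccnd3), −0.081 to 0.054 (Ccne1), −0.23 to 0.56 (Ccne2), −0.14 to 0.032 (Cdk2), −0.24 to 0.022 (Cdk4) and −0.23 to 1.58 (Cdk6).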

Other observations

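Cdk6 stood at different levels in the RNA-seq tables for the YY1-AID subline without auxin, labelled as untreated in one and as auxin for 0 h in the other. It had 13.1 and 40.1 CPM in the table of untreated lines, and 256, 253 and 229 CPM in the 0 h libraries of the time series. Cdkn1b had 19.7 and 45.7 CPM in the table of untreated lines and 36.8, 52.3 and 46.4 CPM at 0 h, and Cdk4 had 514 and 429 CPM and 442, 435 and 469 CPM. The tables were counted and scaled separately and list 22493 and 55351 symbols, so the difference was not tested.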
